A study of Mus musculus with 6 samples.

Results

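The clustered histone genes are the replication-dependent histone genes that lie side by side in a few genomic clusters and encode the linker histone H1 and the core histones H2A, H2B, H3 and H4. They were taken here as the genes with a symbol beginning Hist1h, Hist2h, Hist3h or Hist4h in the mouse GENCODE annotation (release M21, GRCm38), with pseudogenes left out. That gave 67 genes, of which 36 have a row in the deposited counts table of 15445 genes, and 27 of these had enough reads to be tested among 12987 genes. The expression of the other 31 genes, which have no row, was not analysed here, and their sequences were.

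The RNA came from monoclonal T cell receptor transgenic CD4+ T cells of C57BL/6 mice, sorted from spleen on the surface proteins CD4, Thy1.1 (a congenic marker) and CD25 (one chain of the receptor for interleukin-2). Cells were taken 5 days after lymphocytic choriomeningitis virus (LCMV) infection and divided by their CD25 signature into CD25-high and CD25-low, with 3 libraries of each, numbered 1 to 3. All cells of both groups therefore share the transgenic receptor, the host infection and the day. The labels do not name the transgene, do not give the age of the mice and do not tie the libraries to separate animals. The p-values therefore reflect differences among these libraries only, and such differences can be technical. The comparison asks how receptor transgenic CD4+ T cells from infected mice that differ in surface CD25 differ in their transcripts.

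Histones package DNA into nucleosomes, and the clustered genes supply most of the new histone protein when a cell copies its genome. Their typical transcripts have no introns and, unlike other messenger RNAs, carry no poly(A) tail, although some members also have longer or spliced annotated transcripts. The typical forms end after a short RNA stem-loop that is bound by the stem-loop binding protein SLBP, and they accumulate during S phase and are degraded when replication stops. T cells that expand in response to a virus divide rapidly and so pass through S phase often.

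The stem-loop sequence is shown because it is a hallmark of these transcripts. The 16-base sequence was searched on the transcribed strand with at most 2 mismatches, and it was found in annotated transcripts of 41 of the 67 members (61.19%), against 55 of 21834 other protein-coding genes (0.2519%). Among members with a row, 23 of 36 had it. The capitals below mark the 16 matched bases, from GENCODE M21 transcripts, for 4 members described later, in order chr13:23621782-23621797 (minus strand), chr13:23747203-23747218 (plus strand), chr13:23581950-23581965 (plus strand) and chr3:96220418-96220433 (minus strand) of GRCm38.
Hist1h1e: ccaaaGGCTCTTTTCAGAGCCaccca
Hist1h2bb: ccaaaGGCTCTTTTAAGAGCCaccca
Hist1h4d: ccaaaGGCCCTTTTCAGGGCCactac
Hist2h2ac: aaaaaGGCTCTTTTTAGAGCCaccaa
The match was perfect in Hist1h1e, had 1 mismatch in Hist1h2bb and Hist2h2ac, and 2 mismatches in Hist1h4d. It lay 23 bases before the annotated transcript end in Hist1h2bb and 57 in Hist2h2ac, but 1153 in Hist1h1e and 770 in Hist1h4d, whose annotated transcripts run on beyond it. No match was found in the annotated transcripts of Hist1h1b, Hist1h1a, Hist2h2be, Hist1h2ak or Hist1h2bl, which says only that these letters are not in those annotated sequences.

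The promoter motifs of the members differed between the classes. RefSeq promoter windows (GRCm38.p6, 250 bases before to 50 after the start) were matched to 62 of the 67 members. The CCAAT box, searched on both strands, was in 53 of 62 windows (85.48%) against 37.41% of all 32851 promoter windows. It was in every matched H1, H2A, H2B and H3 window (6, 18, 16 and 10 genes) but in 3 of 12 H4 windows. The letters TATAAA were in 35 of 62 windows (56.45%) against 13.62% of all. The octamer ATTTGCAT was in 13 of 62 (20.97%) against 1.735% of all, and those 13 were 7 H2A and 6 H2B genes. The sequence AAACACAAA, known from H1 promoters, was in 3 of 62 windows (4.839%) against 0.7671% of all, 1 each of H1, H2A and H2B. Each motif was searched on both strands and counted on its own, so matches to different motifs may overlap. Windows of neighbouring H2A and H2B genes on opposite strands can cover much of the same DNA. There 1 site can count for both genes, as the octamer does for Hist1h2ah and Hist1h2bk.

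The 250 bases upstream of the RefSeq start are shown for 3 members whose levels varied widely between libraries, with CCAAT and TATAAA in capitals on either strand. They are chr13:21780626-21780875 (minus strand) for Hist1h1b, chr13:23581318-23581567 (plus strand) for Hist1h4d and chr13:23746484-23746733 (plus strand) for Hist1h2bb.
Hist1h1b: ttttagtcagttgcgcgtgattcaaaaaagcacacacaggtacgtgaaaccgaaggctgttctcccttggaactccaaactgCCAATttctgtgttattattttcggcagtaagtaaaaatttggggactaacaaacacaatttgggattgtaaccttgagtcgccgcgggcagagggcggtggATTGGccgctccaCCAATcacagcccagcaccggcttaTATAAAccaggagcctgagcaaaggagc
Hist1h4d: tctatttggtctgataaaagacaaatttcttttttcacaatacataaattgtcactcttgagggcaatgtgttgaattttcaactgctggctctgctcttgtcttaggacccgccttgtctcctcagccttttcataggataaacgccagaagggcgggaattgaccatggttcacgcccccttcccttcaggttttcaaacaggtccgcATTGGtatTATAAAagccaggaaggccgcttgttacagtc
Hist1h2bb: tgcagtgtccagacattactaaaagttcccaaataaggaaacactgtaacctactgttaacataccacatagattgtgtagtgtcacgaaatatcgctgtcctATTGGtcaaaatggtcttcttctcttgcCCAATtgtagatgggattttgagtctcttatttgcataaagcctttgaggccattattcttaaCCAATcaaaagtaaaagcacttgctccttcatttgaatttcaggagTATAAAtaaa
In Hist1h4d the CCAAT match is on the opposite strand, shortly upstream of TATAAA, and in Hist1h2bb the window also holds the octamer, left in lower case.

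Many clustered histone genes are close copies of each other, which bears on what a count of reads can show. For each gene, the share of 50-base words of its transcripts that occur in no other gene's transcripts, on either strand, was computed. The median share was 58.4% for the 36 members with a row and 24.1% for the 31 without. Of the members with a row, 22 had a share of at least 50% and 14 a lower one. Of those without a row, 11 had at least 50% and 20 less. Hist2h2aa1, Hist2h2aa2, Hist2h3b and Hist2h2bb had no such word at all. All exonic bases of each of these lie within exons of a gene annotated on the opposite strand. Their value therefore need not reflect copies among histone genes. H1 genes were the most distinct class by this measure (medians of 97.7% for the 5 genes with a row and 100% for the 1 without). H2A genes, most of which overlap genes annotated on the opposite strand, had medians of 43.0% for the 9 with a row and 6.93% for the 9 without. How the authors' counting treated reads with several matches is not given in the sources used here, so values of members with a low share are uncertain, and the part of copy number in which members have a row was not tested.

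**Figure D1:**
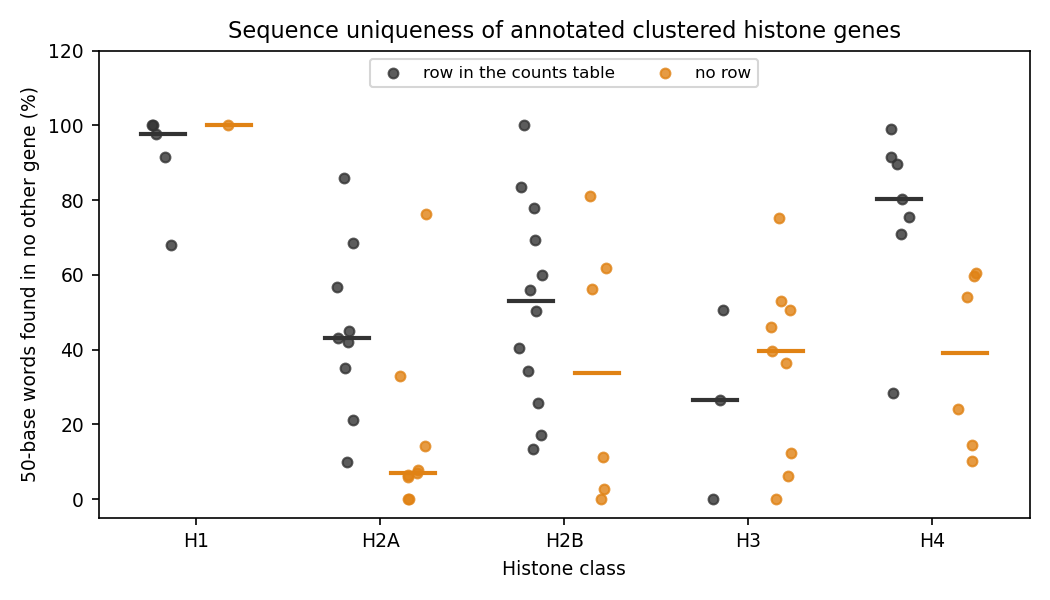
Each point is 1 annotated clustered histone gene, by class (horizontal axis), and the vertical axis gives the percentage of its 50-base words found in no other gene. Black points are genes with a row in the counts table, orange points genes without one, and bars are medians (43.0% and 6.93% in H2A, 80.4% and 39.1% in H4).

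Of the annotated members, 5 of 6 H1 genes, 9 of 18 H2A, 12 of 18 H2B, 3 of 12 H3 and 7 of 13 H4 genes had a row. Cluster 1 on chromosome 13 held 28 of the 36, cluster 2 on chromosome 3 held 5, cluster 3 on chromosome 11 held 2 and cluster 4 on chromosome 6 held 1. None of Hist1h1t, Hist1h2aa and Hist1h2ba, which are known from the testis, had a row.

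Total counts ranged from 16787233 to 23567066 per library. Il2ra, which encodes CD25 and checks the sort, had 1536, 432 and 666 CPM across CD25-high libraries 1, 2 and 3, against 20.7, 29.4 and 35.7 CPM across CD25-low libraries 1, 2 and 3 (edgeR adjusted p 0.00173). CPM values here are counts scaled to the library size after TMM adjustment. The T cell genes Cd4 (571 and 670 CPM on average in CD25-high and CD25-low cells) and Cd3e (1264 and 1391 CPM in the same order of groups) were abundant. The B cell markers Cd79a, Ms4a1 and Pax5 had no row, and Cd79b stayed at or below 1.41 CPM. The 4 myeloid markers with a row summed to 26.8 to 87.6 CPM in the CD25-high and 12.9 to 42.4 CPM in the CD25-low libraries, most of it Itgam except in CD25-low library 1. Itgam was called higher in CD25-high cells with same-numbered libraries paired (log2 fold change 1.57, edgeR adjusted p 0.00130). Adgre1 had no row, and Lyz2 averaged 0.219 CPM in the CD25-high and 0.469 CPM in the CD25-low cells. Cd8b1, a CD8 T cell marker, had 3.51 to 5.33 CPM in the CD25-high and 1.59 to 2.32 CPM in the CD25-low libraries, without overlap. Of all tested genes, 7.41% lay higher in CD25-high cells without overlap. The NK cell markers summed to 0.426 to 4.59 CPM in the CD25-high and 0.869 to 3.01 CPM in the CD25-low libraries, and the erythroid markers to 2.27 to 2.71 CPM in the CD25-high and 1.82 to 3.34 CPM in the CD25-low libraries. The part of other cell types in the histone levels was not tested.

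Reads on the clustered histone genes with a row were scarce in both groups, and their summed level averaged higher in CD25-high cells, with overlapping libraries. The 36 members together took 0.00870% to 0.0300% of all counts, that is 1636 to 6315 reads per library. They summed to 167, 226 and 284 CPM across CD25-high libraries 1, 2 and 3, against 89.5, 128 and 261 CPM across CD25-low libraries 1, 2 and 3. CD25-low library 3 stood above CD25-high libraries 1 and 2, so the groups overlapped, and in both groups library 3 was the highest and library 1 the lowest. The means were 226 ± 58.5 CPM in the CD25-high and 160 ± 90.0 CPM in the CD25-low cells (SD, n = 3 each), a log2 ratio of 0.50. Within same-numbered pairs the log2 ratio was 0.90 in pair 1, 0.82 in pair 2 and 0.12 in pair 3. In bulk samples, fewer cells in S phase and less histone RNA per cell cannot be told apart.

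The ratio rested on which libraries were used. It was 0.21 without CD25-low library 1, 0.30 without CD25-high library 3, 0.36 without CD25-low library 2 and 1.05 without CD25-low library 3. Over the 22 members with at least 50% of distinct words, which held 83.7% of the histone CPM, the sums were 144, 190 and 232 CPM across CD25-high libraries 1, 2 and 3, against 77.2, 108 and 216 CPM across CD25-low libraries 1, 2 and 3, with the same log2 ratio of 0.50. The order of the libraries was therefore as in the full set.

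**Figure D2:**
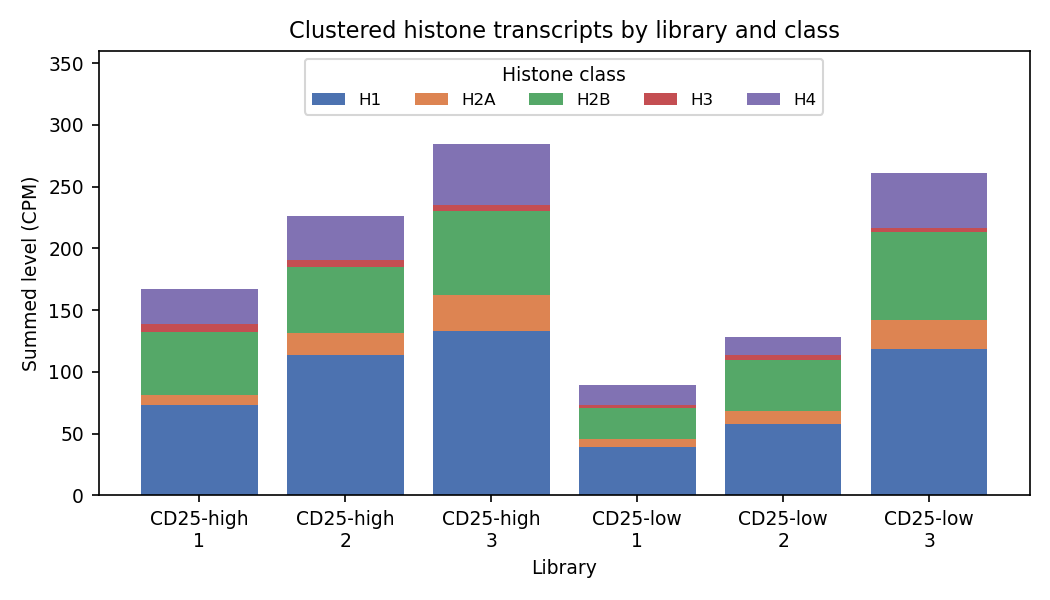
Stacked bars give the summed CPM (vertical axis) of the 36 clustered histone genes with a row in each library (horizontal axis), coloured by class. CD25-high libraries 1 (167 CPM) and 2 (226 CPM) lie below CD25-low library 3 (261 CPM), and H1 is the largest part of every bar.

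No clustered histone gene passed the test between the groups. In edgeR's quasi-likelihood test 0 of 27 members had an adjusted p under 0.05, where 0.655% of all tested genes did (85 of 12987). At an unadjusted p under 0.05 it was again 0 of 27, against 11.1% of all tested genes. DESeq2 and limma voom called 0 of 27 as well (2.7% and 0.724% of all tested genes called), and 0 of 27 at an unadjusted p under 0.05 (12% and 11.5% of all). With the replicate number as a block, which pairs same-numbered libraries, 0 of 27 were called (4.63% of all tested genes), and 3 of 27, Hist1h1b, Hist1h1e and Hist1h4d, had an unadjusted p under 0.05, against 18.1% of all.

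The fitted log2 fold changes nevertheless lay mostly on one side. They were above 0 for 25 of 27 members, against 50.8% of all tested genes, and for 23 of 27 with the block (50.6% of all). The median was 0.48 over the members and 0.01 over all tested genes. Leaving out a library moved the members' median to 0.19 without CD25-low library 1, 0.26 without CD25-high library 3, 0.30 without CD25-low library 2 and 1.17 without CD25-low library 3. In 12 of 27 members the CD25-high library was above its same-numbered CD25-low library in all 3 pairs, against 20.4% of all tested genes, and in 0 of 27 it was below in all 3 pairs (20.2% of all). By pair, 20, 26 and 18 of 27 members were higher in the CD25-high library of pairs 1, 2 and 3, against 50.9%, 49.7% and 50.6% of all tested genes. The members share libraries and sequence, so these counts are not independent observations. In only 1 of 27, Hist1h4i, did all CD25-high libraries lie above all CD25-low libraries, against 7.41% of all tested genes, and in 0 of 27 did they lie below (9.54%).

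**Figure D3:**
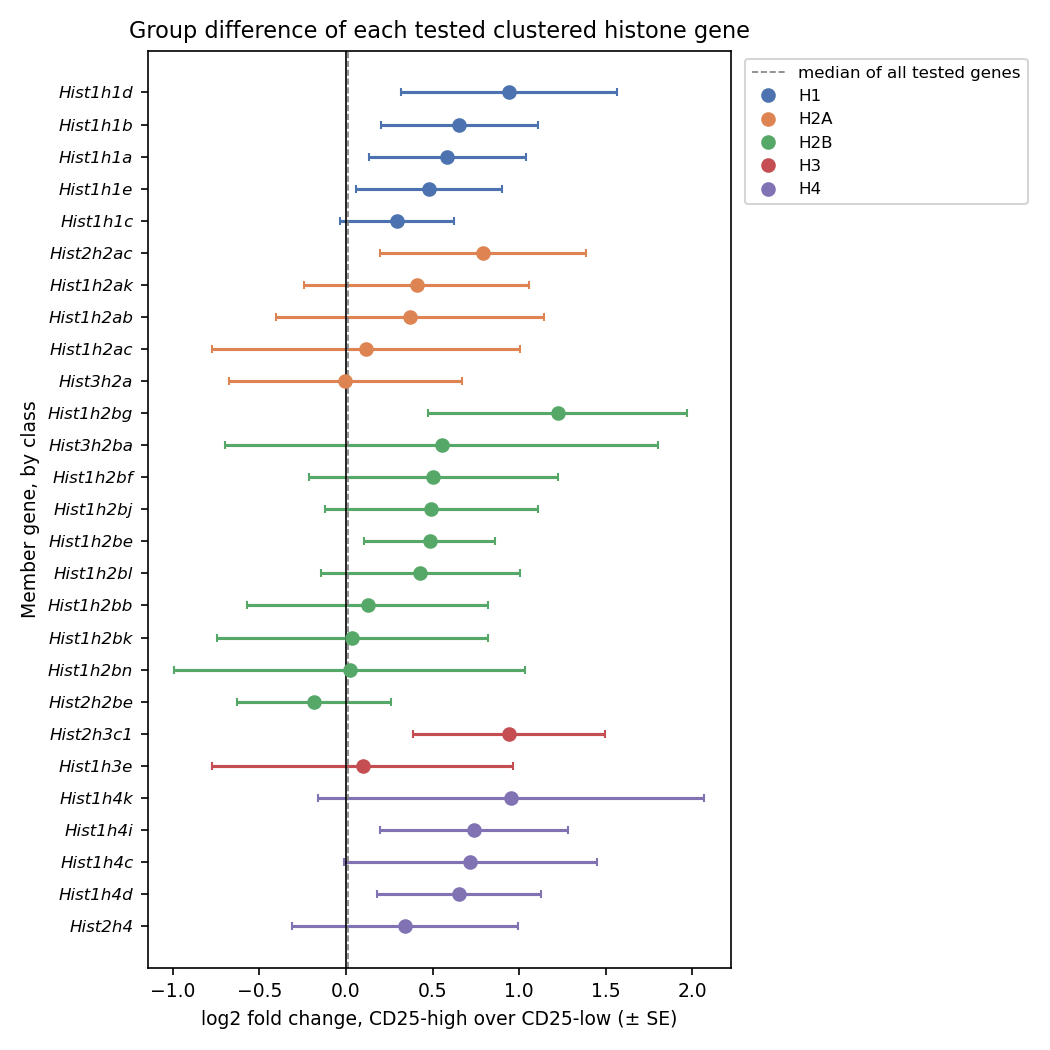
Points are log2 fold changes of the 27 tested members, CD25-high over CD25-low, with bars of 1 standard error and colour by class (rows are genes). 25 points lie right of 0, none passed an adjusted p of 0.05, and the dashed line is the median of all tested genes (0.01).

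H1 genes, the linker histones that bind DNA between nucleosomes, held 46.2% of the histone CPM. Class shares cover only genes with a row and do not give the composition of all histone RNA. A row existed for 3 of 12 H3 genes (median 26.6% of words distinct), but for 5 of 6 H1 genes (97.7%). The 5 members summed to 73.0, 113 and 133 CPM across CD25-high libraries 1, 2 and 3, against 38.9, 57.6 and 118 CPM across CD25-low libraries 1, 2 and 3, and all 5 log2 fold changes were above 0 (median 0.59). Hist1h1b, which encodes H1.5 (ENSMUSG00000058773, chr13:21779883-21780625, minus strand), had 37.4, 56.8 and 62.2 CPM across CD25-high libraries 1, 2 and 3, against 13.6, 25.5 and 60.2 CPM across CD25-low libraries 1, 2 and 3. Each CD25-high library was above its same-numbered CD25-low library, but CD25-low library 3 was above CD25-high libraries 1 and 2. The log2 fold change was 0.65 ± 0.45 (SE; edgeR adjusted p 0.654), and 0.88 ± 0.26 with the replicate block (adjusted p 0.0795). With the block and without pair 3 it was 1.31 (adjusted p 0.00601), which made it the 1 member called of the 24 also tested there (4.08% of all tested genes), and without pair 1 or 2 the adjusted p was 0.291 and 0.266. Hist1h1b was also the most abundant member per length, at 57.3 CPM per kb of annotated exon, and all its 50-base words were distinct.

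The other H1 genes had smaller levels. Hist1h1e, which encodes H1.4, had 16.4, 24.7 and 30.0 CPM across CD25-high libraries 1, 2 and 3, against 8.91, 13.3 and 28.6 CPM across CD25-low libraries 1, 2 and 3 (log2 fold change 0.48 ± 0.42, edgeR adjusted p 0.740). It is annotated with 496 exonic bases in common with Hist1h2be on the same strand, so reads there cannot be assigned to either. Hist1h1a (H1.1), named after its values were seen, had 8.05, 9.58 and 14.6 CPM in the CD25-high libraries, against 4.98, 4.47 and 12 CPM across CD25-low libraries 1, 2 and 3 (0.59 ± 0.45, adjusted p 0.692). In both genes CD25-low library 3 lay between CD25-high libraries 2 and 3. Hist1h1c, which encodes H1.2, had the smallest log2 fold change of the 5, with 9.24, 16 and 16.1 CPM in the CD25-high and 9.52, 11.3 and 12.9 CPM in the CD25-low libraries (0.30 ± 0.33, adjusted p 0.809). Hist1h1d (H1.3) had 1.87, 6.23 and 10.5 CPM in the CD25-high and 1.91, 3.07 and 4.67 CPM in the CD25-low libraries (0.94 ± 0.62, adjusted p 0.634). In both of these CD25-high library 1 was slightly below CD25-low library 1.

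H2A genes, which pair with H2B in the nucleosome core, held 8.37% of the histone CPM, and 4 of 5 tested had a log2 fold change above 0. Hist1h2ak had 3.40, 7.29 and 12.3 CPM across CD25-high libraries 1, 2 and 3, against 1.70, 4.81 and 10.8 CPM across CD25-low libraries 1, 2 and 3 (0.41 ± 0.65, edgeR adjusted p 0.870). Hist2h2ac, in cluster 2, had 2.38, 3.30 and 5.19 CPM in the CD25-high and 1.42, 1.32 and 3.52 CPM in the CD25-low libraries (0.79 ± 0.59, adjusted p 0.682). The CD25-high library was above its CD25-low partner in each pair for both genes, and the groups overlapped. Only 43.0% and 45% of their 50-base words are distinct. Hist3h2a had 0.737, 2.34 and 3.95 CPM in the CD25-high and 1.64, 2.13 and 3.27 CPM in the CD25-low libraries (-0.00 ± 0.67, adjusted p 0.999), and it shares 708 exonic bases with Trim17.

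H2B genes held 26.9% of the histone CPM, and 9 of 10 tested had a log2 fold change above 0. Hist1h2be had 18.7, 15.9 and 19.6 CPM across CD25-high libraries 1, 2 and 3, against 7.60, 10.3 and 20.8 CPM across CD25-low libraries 1, 2 and 3 (0.48 ± 0.38, edgeR adjusted p 0.696). CD25-low library 3 was the highest of all 6, and the other CD25-low libraries were the lowest. Hist1h2bb had 4.36, 10.8 and 11.7 CPM in the CD25-high and 1.75, 5.32 and 17.4 CPM in the CD25-low libraries, so its lowest and its highest library were both CD25-low (0.13 ± 0.70, adjusted p 0.968). Hist1h2bl, named after its values were seen, had 3.80, 9.96 and 14.5 CPM in the CD25-high and 3.77, 4.64 and 12.5 CPM in the CD25-low libraries (0.43 ± 0.58, adjusted p 0.847), with 17.2% of its words distinct. Hist1h2bg had 6.69, 2.13 and 4.46 CPM in the CD25-high and 0.383, 1.75 and 3.52 CPM in the CD25-low libraries, the largest log2 fold change of the 27 (1.22 ± 0.75, adjusted p 0.597). CD25-low library 3 was above CD25-high library 2, and the log2 fold change was 0.75 without CD25-low library 1, 2.04 without CD25-low library 3 and 0.31 with the replicate block without pair 1.

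Hist2h2be, an H2B gene of cluster 2, was one of the few members without a positive log2 fold change. It had 10.1, 6.44 and 7.78 CPM across CD25-high libraries 1, 2 and 3, against 7.60, 15.1 and 5.00 CPM across CD25-low libraries 1, 2 and 3. CD25-low library 2 was the highest and CD25-low library 3 the lowest, so the CD25-high libraries lay inside the range of the CD25-low ones. The log2 fold change was -0.18 ± 0.44 (edgeR adjusted p 0.921), the lowest of the 27, and all its words were distinct.

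H3 and H4 form the tetramer at the centre of the nucleosome. Among the genes with a row, H3 was the scarcest class, with 2.08% of the histone CPM over 3 of 12 annotated genes. Its sums were 6.01, 5.06 and 4.23 CPM across CD25-high libraries 1, 2 and 3, against 2.08, 3.75 and 2.94 CPM across CD25-low libraries 1, 2 and 3. All CD25-high libraries lay above all CD25-low libraries here. Most of this was Hist2h3c1, with 5.21, 3.78 and 2.76 CPM in the CD25-high and 1.59, 3.19 and 1.32 CPM in the CD25-low libraries (0.94 ± 0.56, edgeR adjusted p 0.582). All 1825 of its exonic bases lie within exons of Gm20634 on the same strand and none of its words is distinct, so its reads cannot be told from those of other genes. Hist1h3e had 0.227, 0.958 and 1.24 CPM in the CD25-high and 0.383, 0.468 and 1.41 CPM in the CD25-low libraries (0.10 ± 0.87, adjusted p 0.981). Hist1h3a, too low to be tested, had 0.567, 0.319 and 0.226 CPM in the CD25-high and 0.109, 0.0852 and 0.207 CPM in the CD25-low libraries.

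H4 genes held 16.5% of the histone CPM, and all 5 tested had a log2 fold change above 0. Hist1h4d (ENSMUSG00000061482, chr13:23581598-23582735, plus strand) had 18, 23.7 and 33.8 CPM across CD25-high libraries 1, 2 and 3, against 8.26, 9.84 and 29.8 CPM across CD25-low libraries 1, 2 and 3. The CD25-high library was above its CD25-low partner in each pair, and CD25-low library 3 was above CD25-high libraries 1 and 2. The log2 fold change was 0.65 ± 0.47 (edgeR adjusted p 0.669), and 0.85 with the replicate block (adjusted p 0.118). Hist2h4 had 5.16, 6.50 and 8.57 CPM in the CD25-high and 2.35, 1.87 and 11.7 CPM in the CD25-low libraries (0.34 ± 0.65, adjusted p 0.897). Hist1h4i had 3.85, 3.25 and 3.95 CPM in the CD25-high and 3.17, 2.34 and 1.12 CPM in the CD25-low libraries (0.74 ± 0.54, adjusted p 0.676). It was the 1 tested member whose groups did not overlap, and CD25-low library 3 was its lowest library. Hist1h4k had 0.964, 0.213 and 0.620 CPM in the CD25-high and 0.383, 0 and 0.538 CPM in the CD25-low libraries (0.95 ± 1.12, adjusted p 0.821). The count of 0 in CD25-low library 2 allows a level of up to 0.128 CPM at a floor of 3 counts, which covers counting error only.

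**Figure D4:**
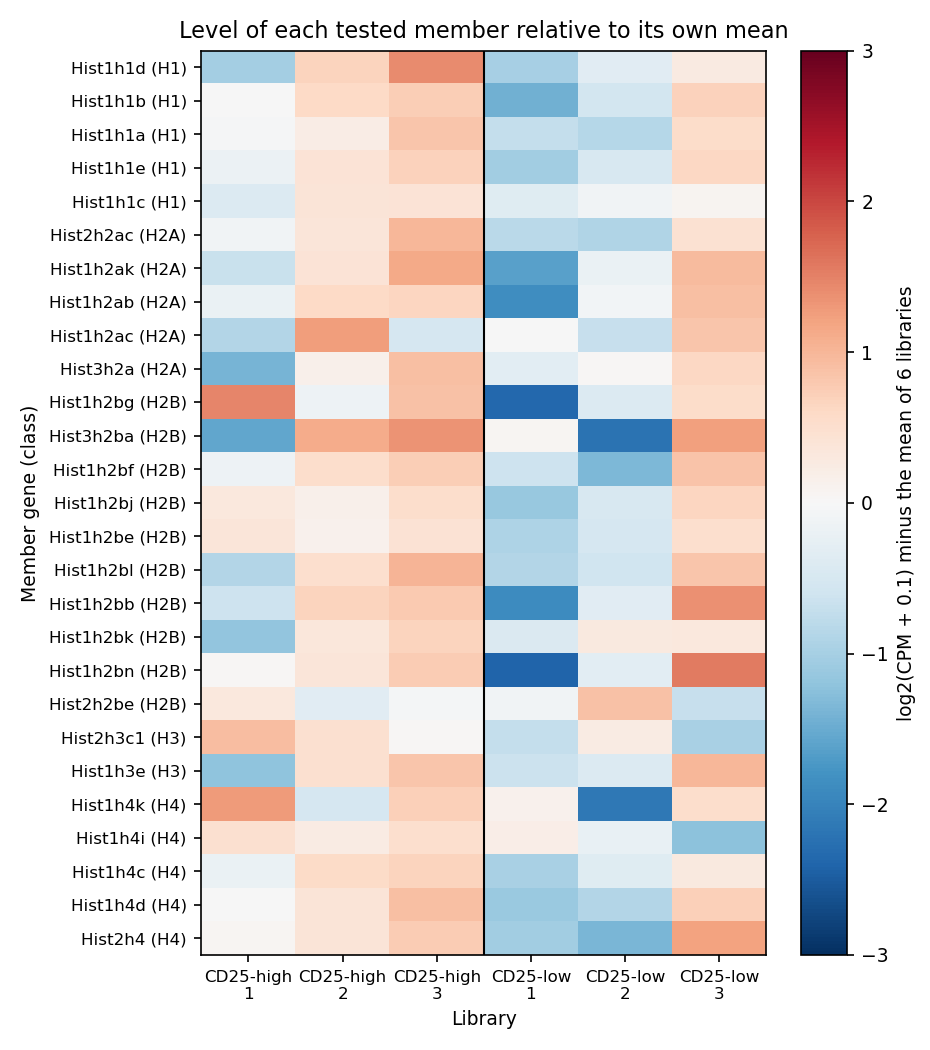
Colour shows log2(CPM + 0.1) of each tested member (rows, by class) in each library (columns, CD25-high left) minus its mean over the 6 libraries. CD25-low library 3 is red for most members as is CD25-high library 3, with Hist1h4i, Hist2h3c1 and Hist2h2be as blue exceptions in CD25-low library 3.

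The members varied among libraries of one group more than the typical tested gene, at levels that were not matched. The pooled SD of log2(CPM + 0.1) within groups had a median of 0.861 over the 27 members (0.359 to 1.69), against 0.434 over all 12987 tested genes. Most members had a higher fitted level in libraries 3 than in libraries 1, which gives the direction only. In the fit with the replicate block, the log2 difference of libraries 3 over libraries 1 was above 0 for 24 of 27 members, against 50.4% of all tested genes, with a median of 1.32 against 0.01. This contrast was chosen after the values were seen and is a description. It was 1.46 for Hist1h1b, 1.41 for Hist1h4d, 2.41 for Hist1h2bb and 2.25 for Hist1h2ak, and it was -0.47 for Hist2h2be, -0.64 for Hist2h3c1 and -0.67 for Hist1h4i, the 3 members on the other side. The myeloid marker Itgam (2.19) and the T cell marker Thy1 (1.70) were also higher in libraries 3 than in libraries 1. Their values across libraries 1, 2 and 3 were 21.1, 77.2 and 71.6 CPM for Itgam and 97.8, 270 and 274 CPM for Thy1 in CD25-high cells, against 5.03, 26.3 and 32.1 CPM and 54.0, 206 and 207 CPM in CD25-low cells. Both were lowest in library 1 of each group, and Thy1 was named after its values were seen. Between libraries 3 and 1 the 3 tested myeloid and 8 T cell genes had median log2 differences of 0.78 and 0.34. The myeloid gene Csf1r (-0.62) and the T cell gene Trac (-0.15) went the other way. The part of these markers in the histone levels was not tested.

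The ribosomal RNA-like transcript Gm42418 moved with the histone sum. Gm42418, which overlaps ribosomal RNA sequence, had 7183, 10472 and 19222 CPM across CD25-high libraries 1, 2 and 3, against 3648, 6480 and 18741 CPM across CD25-low libraries 1, 2 and 3. It put the 6 libraries in the same order as the histone sum did. How many other genes give that order was not counted. The log2 CPM of Gm42418 was then used as a second term, an alternative chosen after the values were seen. The slope on Gm42418 was above 0 for 24 of 27 members (49.7% of all tested genes), and 0 of 27 slopes had an edgeR adjusted p under 0.05. As Gm42418 follows the histone sum, slopes above 0 in most members add no separate support. In that fit the log2 fold change between the groups was above 0 for 21 of 27 members (50.9% of all), with a median of 0.23 and 0 of 27 called. The share of counts on mitochondrial ribosomal RNA was 34.0%, 32.1% and 29.3% across CD25-high libraries 1, 2 and 3. Across CD25-low libraries 1, 2 and 3 it was 35.3%, 33.1% and 31.7%. In both groups it fell from library 1 to library 3, while the histone sum and Gm42418 rose. The part of ribosomal RNA content in the histone levels was not tested.

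**Figure D5:**
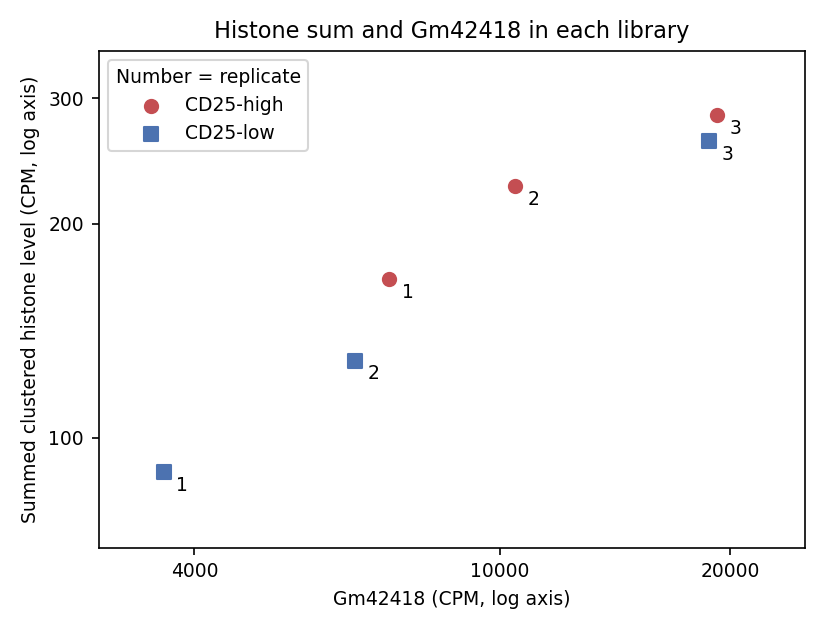
Each point is 1 library (red circles CD25-high, blue squares CD25-low, number the replicate), with Gm42418 CPM on the horizontal and summed histone CPM on the vertical axis, both logarithmic. The libraries fall in the same order on both axes, with CD25-high library 3 (19222 and 284 CPM) the highest and CD25-low library 1 (3648 and 89.5 CPM) the lowest.

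Adjacent H2A and H2B genes are often transcribed away from each other from a shared stretch of DNA, and their levels were compared per length. In 6 such pairs both genes had a row, with starts 176 to 296 bases apart. Hist1h2ak was at 17.1 CPM per kb beside 2.59 for Hist1h2bn, while Hist1h2ai was at 2.50 CPM per kb beside 21.5 for Hist1h2bl. Hist1h2bj (5.12) and Hist1h2bg (5.10) likewise exceeded their partners Hist1h2ag (0.398) and Hist1h2ae (0.261). Hist2h2ac and Hist2h2be were closer, at 5.49 and 3.31 CPM per kb. Per length, the higher gene was thus the H2A gene in 2 pairs and the H2B gene in 4. This count depends on annotated exon length. Before division by length, Hist2h2be (2620 bases) was at 8.68 CPM on average, above Hist2h2ac (520 bases) at 2.85 CPM. In the other direction, Hist1h2ac (2482 bases) was at 0.729 CPM, above Hist1h2bc (1156 bases) at 0.538 CPM. Hist1h2ai, Hist1h2bl and Hist1h2bn have under 20% of distinct words, so how reads were shared out can set their levels.

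Genes of related function were read from the same fit, in which 0.655% of all tested genes were called and 50.8% lay above 0. With the block 4.63% of all tested genes were called. At these shares, 0 called in a list this short is no result about the list. Of 9 tested unclustered histone variants, 0 passed in edgeR without or with the block (median log2 fold change 0.02, 5 above 0). Their sums of 563 to 603 CPM in the CD25-high and 534 to 569 CPM in the CD25-low libraries exceeded the clustered sum in every library. How reads shared between copies were counted is not known, and recovery of transcripts without a poly(A) tail was not tested. The sums also differ in coverage, with 36 of 67 clustered genes against 9 of 11 listed variants. The 2 with the smallest p were H2afv (16.5 ± 7.69 CPM in the CD25-high and 28.3 ± 5.31 CPM in the CD25-low cells, SD, n = 3 each, edgeR adjusted p 0.461) and H2afz, which encodes H2A.Z (63.9 ± 2.37 CPM in the CD25-high and 49.9 ± 4.63 CPM in the CD25-low cells, adjusted p 0.553). H2afx, which encodes H2A.X and was named after its values were seen, had 15.5, 34.7 and 35.3 CPM across CD25-high libraries 1, 2 and 3, against 13.7, 24.7 and 46.1 CPM across CD25-low libraries 1, 2 and 3 (0.02 ± 0.44, adjusted p 0.995). Library 3 was the highest and library 1 the lowest of each group, as for the clustered histone sum.

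Of 15 genes of histone transcription and pre-mRNA processing, 0 passed in either fit, and 9 were above 0 (median 0.07). Slbp, which encodes the stem-loop binding protein, had 128, 129 and 129 CPM across CD25-high libraries 1, 2 and 3, against 113, 110 and 101 CPM across CD25-low libraries 1, 2 and 3. Its groups did not overlap, and the log2 fold change was 0.25 ± 0.18 (edgeR adjusted p 0.661). Of all tested genes, 7.41% lay higher in CD25-high cells without overlap and 9.54% lower. In the same list Eri1 also lay higher without overlap, and Tut1 and Cstf2t lay lower without overlap. Npat, the coactivator of clustered histone genes, had 127 ± 7.5 CPM in the CD25-high and 109 ± 12.5 CPM in the CD25-low cells (0.22 ± 0.19, adjusted p 0.733). Casp8ap2, which encodes the histone locus body protein FLASH, was close to 0 (0.04 ± 0.17, adjusted p 0.957). Lsm10 and Lsm11, of the U7 particle that cuts histone pre-mRNA, had log2 fold changes of -0.93 ± 0.54 and -0.49 ± 0.55 (adjusted p 0.580 and 0.813). The third U7-associated gene, Zfp473, was at -0.02 ± 0.44 (adjusted p 0.995).

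Of 15 histone chaperones, 0 passed without the block. Daxx, which encodes a chaperone of the variant H3.3, was lower with the block (log2 fold change -0.85, edgeR adjusted p 0.0184), with 41.8 ± 11 CPM in the CD25-high and 74.1 ± 11.7 CPM in the CD25-low cells (SD, n = 3 each). Without the block its value was -0.83 ± 0.25 (adjusted p 0.237), and with the block but without pair 3 it was not called (-0.72, adjusted p 0.124).

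Of 28 S-phase genes set beside the histones, 0 passed without the block and all 28 had log2 fold changes above 0 (median 0.30, against 0.01 over all tested genes). Their sums were 4534, 5109 and 4935 CPM across CD25-high libraries 1, 2 and 3, against 4325, 3579 and 3880 CPM across CD25-low libraries 1, 2 and 3, so the groups did not overlap. CD25-low library 1 was the highest of its group here and the lowest of all 6 for the histone sum. Between libraries 3 and 1 the S-phase genes had a median log2 difference of 0.02, against 1.32 for the clustered histone genes. Single genes of the list differed from that median, and the replication regulators E2f1 and E2f2, named after their values were seen, were at 1.24 and 1.10. Mcm2, a subunit of the replication helicase, had 180 ± 27.7 CPM in the CD25-high and 118 ± 14.3 CPM in the CD25-low cells (SD, n = 3 each). Its log2 fold change was 0.62 ± 0.20 (edgeR adjusted p 0.273), and with the block it was called (0.61, adjusted p 0.0486), but not with the block without pair 1 or 2 (adjusted p 0.149 and 0.245).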

How the data were processed

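RNA from 3 CD25-high and 3 CD25-low samples was sequenced. Per the labels' protocols, total RNA was extracted with QIAzol and the miRNeasy kit and libraries were made with the Ovation kit of NuGEN (RNA-Seq System v2). The authors deposited raw counts per Ensembl gene. The submitters' processing notes list Novoalign, DESeq2, mm10 and hg19 with neither role nor version. Not given in the sources used here are the counter, annotation, strand setting and treatment of reads matching several genes. Of 15445 identifiers, 15169 matched GENCODE M21 (GRCm38) and 276 did not. The smallest row total was 10.

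Counts were tested with edgeR 4.0.16 in R 4.3.3 (TMM factors, filterByExpr with minimum count 10 and total 15, quasi-likelihood F test, only the group as a term), with Benjamini-Hochberg adjustment over 12987 genes and calls under an adjusted p of 0.05. Fold changes are CD25-high over CD25-low, with a standard error (SE) obtained by dividing the absolute value by the root of F. Replicates all differed beyond sampling noise. Members and lists were chosen with earlier results of these data known. Named members are the 3 most abundant of each class, the 5 with the most positive and the 5 with the most negative log2 fold changes, any called with or without the block, and testis genes, with exceptions marked. Of other lists the 2 genes with the smallest p could be named, and any processing gene.

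To check the pairing, each library's deviation from its group mean was correlated over 2000 genes. Libraries with the same number gave 0.34, 0.19 and 0.16, above the limit of 0.1. CD25-high library 2 and CD25-low library 3 reached 0.13. No label says that same-numbered libraries are pairs, so pairing rests on the data. It was used in the replicate block and in comparisons within pairs. Reported SE and adjusted p come from the fit without the block, which ignores any pairing, unless another fit is named. That fit called 85 genes, against 601 with the replicate block. Alternatives were that replicate block, DESeq2 1.42.0, limma voom (3.58.1), other factors, unfiltered counts, stricter filtering (CPM of 1 or more in 3 libraries with a mean count from 10), removal of mitochondrial and the 50 most abundant genes, libraries left out, and Gm42418 as a covariate. The fits were tested on simulated data. Promoters are RefSeq's, and 50-base words were compared between GENCODE transcripts on both strands.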

Additional observations from a re-analysis of the deposited data

How the results depend on the processing

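Across the alternatives the count of clustered histone genes called was 0, except with the replicate block without pair 3, which called 1, Hist1h1b. All genes called numbered 85 in the fit without a block, 376 with DESeq2, 22 to 130 with 1 library left out, 601 with the replicate block, and 461, 486 and 536 once pair 1, 2 or 3 was taken out of the blocked fit. The members' median log2 fold change ran from 0.19 to 1.17 with 1 library left out, and was 0.69 with the block and 0.96 with the block without pair 3. The log2 ratio of the sums ran from 0.21 to 1.05 with 1 library left out and was 0.61 within pairs. DESeq2, limma voom, no filter and the covariate gave no value of that ratio. Without the block the other lists had 0 genes called, where 0.655% of all tested genes were. With the block 4.63% of all tested genes were called. Called were then 1 of 15 chaperones and 1 of 28 S-phase genes. So were 2 of 8 T cell genes (Cd3g and Cd3d, lower) and 1 of 3 tested myeloid genes (Itgam). Omitting pair 1 from that fit gave 2 S-phase and 0 T cell genes, and omitting pair 3 gave 0 chaperones. Other lists kept a count of 0 with the block.

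Directions turned in members and processing genes with no call, and the cause was not tested. With Gm42418 as covariate, Hist1h2ak was at -0.046, Hist1h2bb at -0.094, Hist1h2bl at -0.011, Hist1h3e at -0.36, Hist2h2be at 0.039 and Zfp473 at 0.067. Hist3h2a was at 0.00028 with DESeq2, 0.0012 with RLE factors, 0.012 with upper-quartile factors and 0.021 with library size only. With the block, Hist3h2a was at 0.20 and Casp8ap2 at -0.0075 without pair 1, Hist1h3e at -0.43 and Hist2h2be at 0.52 without pair 2, and Lsm11 at 0.11 and Zfp473 at 0.24 without pair 3. With 1 library left out the ranges were -0.10 to 1.23 for Hist1h2ak, -0.35 to 1.33 for Hist1h2bb, -0.019 to 1.15 for Hist1h2bl, -0.34 to 0.91 for Hist1h3e, -0.48 to 0.37 for Hist2h2be, -0.067 to 1.67 for Hist2h4, -0.60 to 0.42 for Hist3h2a and -0.39 to 0.29 for Zfp473. With 1636 to 6315 histone reads per library over 36 genes, members at a few reads per library cannot show small differences.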
